A study of Mus musculus with 2 samples.

Results

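Histone methylation is set by enzymes that add or remove methyl groups on histone tails and by the Polycomb complexes, and 37 genes of this machinery were followed here across the cell types of the embryonic cortex. They were chosen by name, as rows of the deposited gene lists, and are 37 of 32285 listed features. By role, they comprise 5 genes of Polycomb repressive complex 2 (PRC2: Ezh1, Ezh2, Eed, Suz12, Jarid2), 6 of Polycomb repressive complex 1 (PRC1: Rnf2, Ring1, Bmi1, Cbx2, Cbx7, Cbx8) and 6 of the H3K4 methyltransferase family (Kmt2a, Kmt2b, Kmt2d, Kmt2e, Setd1a, Setd1b). The others are 4 H3K36 methyltransferases (Setd2, Nsd1, Nsd2, Nsd3), 3 H3K9 methyltransferases (Ehmt2, Suv39h1, Setdb1), a pair of PRDM-family regulators (Prdm16, Prdm8) and 11 demethylases (Kdm1a, Kdm2b, Kdm3a, Kdm4a, Kdm4b, Kdm4c, Kdm5a, Kdm5b, Kdm6b, Kdm7a, Phf8).

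Single-cell RNA sequencing had been carried out on the dissociated dorsal telencephalon at embryonic day 16.5, in 2 libraries of wild-type (WT) mice named WT replicate 1 and WT replicate 6. The series belongs to a project on conditional deletion of Dot1l, a methyltransferase that is not among the 37 genes, with Emx1-Cre, which acts in the dorsal telencephalon. Both libraries are labelled WT, the labels do not say which alleles these embryos carried, and knockout samples were not analysed here. The libraries came from embryos of different sex, since Xist had 76258 UMIs (unique molecular identifiers, 1 per captured mRNA molecule) in replicate 1 and 10 in replicate 6, and the Y-linked gene Ddx3y 5 and 2193.

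PRC2 places the repressive mark H3K27me3 through its catalytic subunits Ezh2 and Ezh1, with Eed and Suz12 as core partners. PRC1 monoubiquitinates histone H2A through Rnf2 and Ring1, and its Cbx subunits read H3K27me3. In the developing cortex these complexes are known for their part in timing the passage of radial glial cells (RGCs), the stem cells of the ventricular zone, to intermediate progenitor cells (IPCs) and neurons, while H3K4 methylation marks active promoters and enhancers and H3K9 methylation marks heterochromatin.

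Barcodes were kept that carried between 1500 and 60000 UMIs, fewer than 10% of them mitochondrial, 8139 in replicate 1 and 8209 in replicate 6, with medians of 6924 and 6664 UMIs. Each cell was assigned to a class by marker UMIs, none of them a member of the 37, and cells that met no gate (3634 and 3296) or several (2 and 6) were left out. The 18 classes held 26 to 1368 cells per library, and all but 1 of them had a marker of their cell type among the 10 genes furthest above the other gated cells. The exception was the cycling progenitors of the ganglionic eminence (GE), led by 10 cell cycle and histone genes. Their GE markers stood apart all the same, with Dlx1 at 622 and 594 UMIs per 1000000 against 5.61 and 6.15 in cycling RGCs and Dlx2 at 282 and 320 against 4.21 and 6.15. The class gated as microglia was also led by Pf4, Mrc1 and F13a1, known from macrophages at the borders of the brain. Progenitors counted as cycling when both Mki67 and Top2a had at least 1 UMI and as non-cycling when neither had, and progenitors with UMIs of 1 of them alone (56 and 60 RGCs, 39 and 45 IPCs) were left out. The dissection thus also held cells of the GE, the ventral source of interneurons, and striatal neurons. The libraries shared 59 cell barcodes, whose part in the results was not tested. Counts were summed per library and class, so each value below rests on 2 libraries, and levels are given as CPM, the UMIs of a gene scaled to a sum of 1000000 per class and library, replicate 1 first.

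The 37 genes together took 2856 ± 126 CPM (SD, n = 2) in non-cycling RGCs, 3854 ± 80.4 in non-cycling IPCs and 3227 ± 75.8 in excitatory neurons. Cycling IPCs had 4135 ± 69.5 and cycling GE progenitors 4106 ± 54.4, the highest sums among the classes, and erythroid cells had 240 ± 51.5. In erythroid cells, which lose their nucleus, 33 of the 37 genes had their lowest level, and the highest of them there was Jarid2 with 35.8 CPM on average. Leaving out erythroid cells, 9 genes had their highest mean level in cycling GE progenitors, 6 in non-cycling IPCs and 4 in interneurons of the caudal ganglionic eminence (CGE). The same class was highest in both libraries for 19 of the 37 genes.

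**Figure D1:**
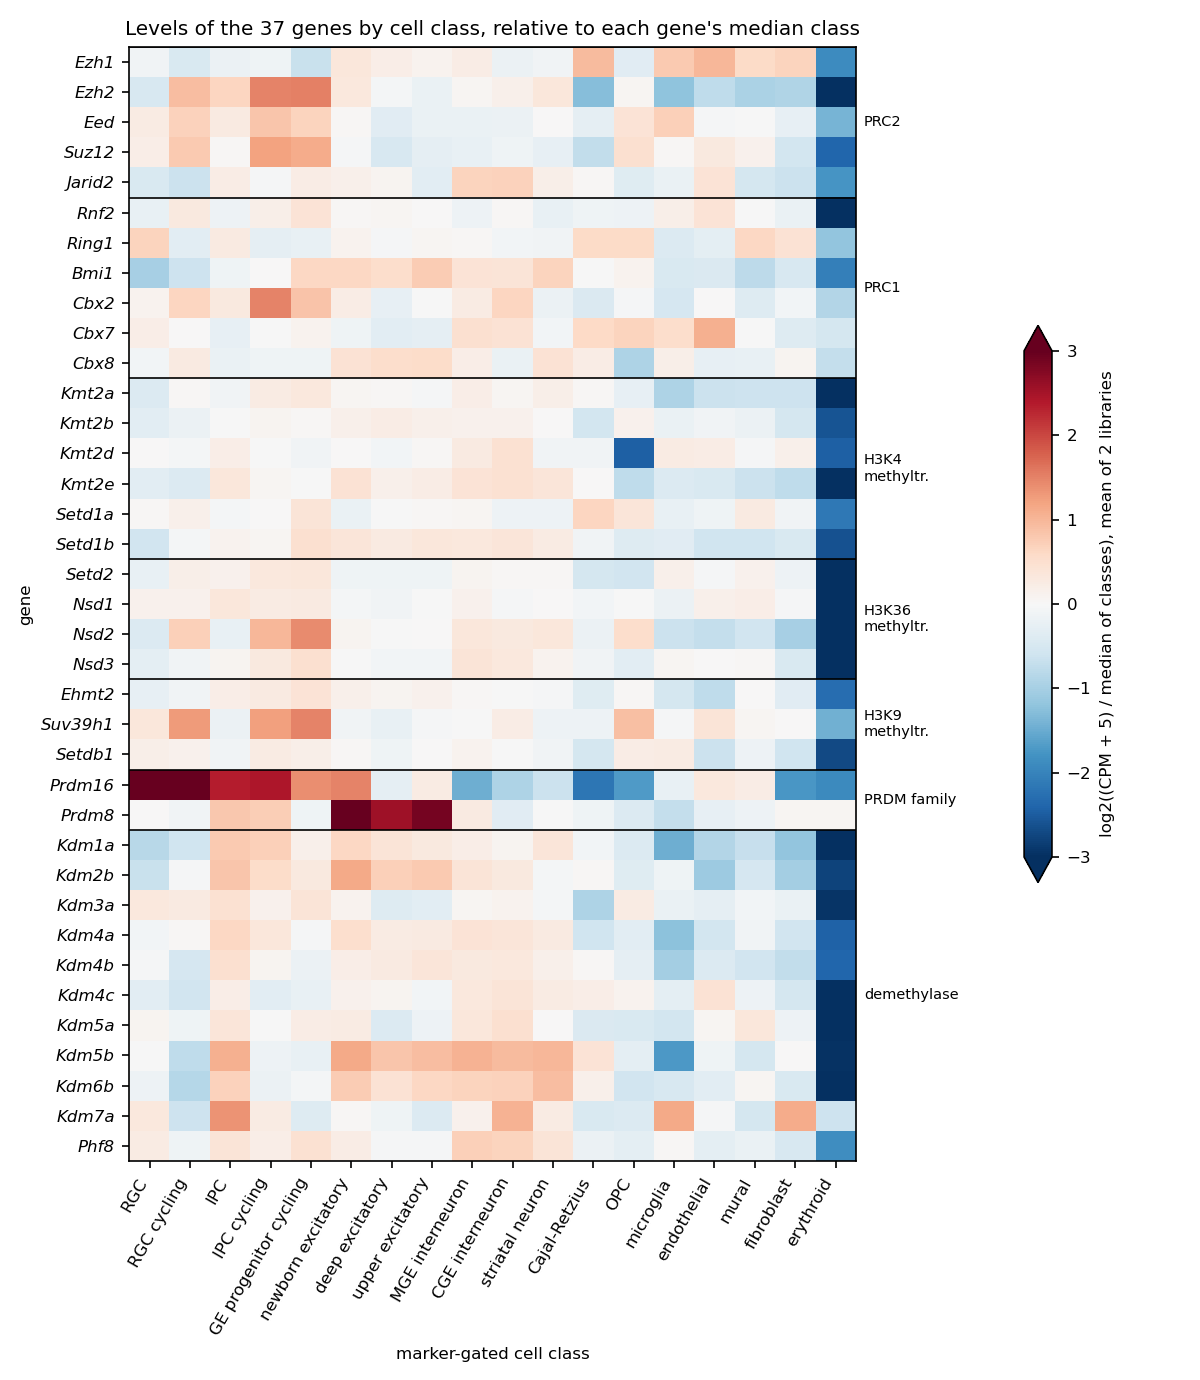
Heat map of the 37 genes (rows, by role) in 18 marker-gated classes (columns), coloured by log2 of mean CPM + 5 over the gene's median class, mean of 2 libraries, with colours saturating at 3 in either direction. Prdm16 stands out in RGCs and Prdm8 in the 3 excitatory neuron classes, Ezh2, Suz12, Nsd2 and Suv39h1 in cycling progenitors, and the erythroid column is low for 33 genes.

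The widest range was that of the PRDM genes. Prdm16, a regulator of radial glia, had 463 and 508 CPM in non-cycling RGCs, 172 and 188 in IPCs, 101 and 91.9 in newborn excitatory neurons, and 16.9 and 33.1 in deep-layer neurons. In interneurons of the medial ganglionic eminence (MGE) it had 10.6 and 5.73 CPM. With every cell thinned to 2000 UMIs, 55.7% ± 0.983 (SD, n = 2 libraries) of RGCs had a Prdm16 UMI and 1.28% ± 1.2 of MGE interneurons, against 0 of 55 erythroid cells, which allows a share of up to 5.45% (unthinned 88.2%, 2.87% and 1.92%). The share of MGE interneurons lies under that limit, as does the 5.01% ± 0.354 of deep-layer neurons. By these shares neither is told apart from background, and the level in MGE interneurons is not read as expression. In CPM, the 95% Poisson interval was 20 to 30.6 in deep-layer neurons, above the 0.518 to 15.5 of erythroid cells. MGE interneurons had 4.86 to 12.6, within the erythroid interval. Whether the deep-layer level is expression was not tested. Median depths before thinning were 9009 and 8915 UMIs in RGCs, 5359 and 4672 in MGE interneurons and 7165 and 8945 in erythroid cells. Shallower cells were left out of the thinning, 2 of 212 RGCs, 16 of 440 MGE interneurons and 2 of 57 erythroid cells. Prdm8, a repressor that acts with Bhlhe22 in neurons, ran the other way, with 8.49 and 3.26 CPM in RGCs, 9.19 and 18.8 in IPCs and 96.4 and 82.5 in newborn excitatory neurons. It had a UMI in 14.9% ± 1.57 of thinned newborn excitatory neurons and in 1.41% ± 0.597 of RGCs, the latter no higher than the 1.67% of erythroid cells and therefore read as background (unthinned 48.6%, 4.64% and 5.15%). No ranges of the libraries overlapped between RGCs and IPCs for Prdm16 or between IPCs and newborn neurons for Prdm8.

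**Figure D2:**
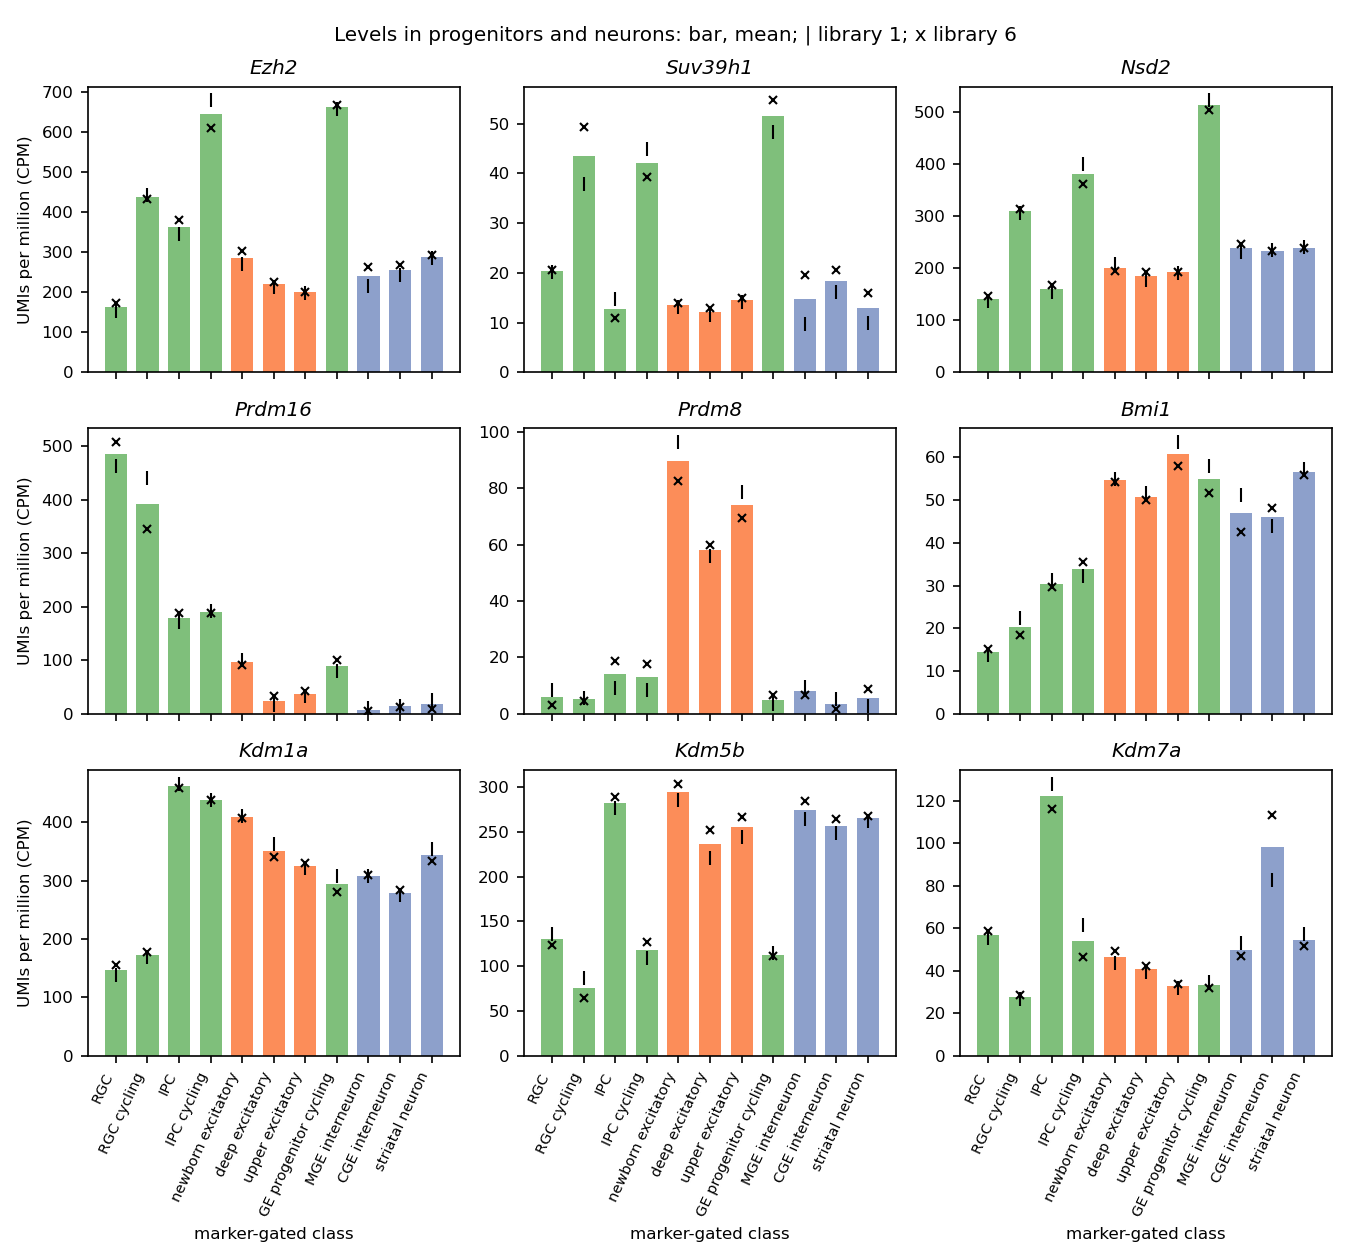
Levels of 9 genes in CPM (vertical axes, from 0) in 11 marker-gated progenitor and neuron classes, with bars for the mean of 2 libraries and a symbol for each library. Green bars are progenitors, orange excitatory neurons and blue GABAergic neurons. Ezh2, Suv39h1 and Nsd2 are higher in the cycling than in the non-cycling bars of RGCs and IPCs, Kdm5b and Kdm7a lower, and Prdm16 falls from RGCs to neurons.

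The first comparison was between cycling and non-cycling progenitors. In RGCs, 4 of the 34 genes tested were higher in cycling cells and 3 lower, and in IPCs 5 of 35 were higher and 3 lower, where 12.7% and 18.3% of all genes tested were called in either direction. The median log2 difference of the genes was 0.17 in RGCs and -0.03 in IPCs, beside -0.01 over all genes tested in both. Ezh2, Suz12, Nsd2 and Suv39h1 were higher in both progenitor types, Kdm5b and Kdm7a were lower in both, and none of the genes was called in opposite directions. A gene was called at an adjusted p under 0.05 in edgeR's quasi-likelihood test over all genes, and log2 differences carry their standard error (SE).

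Among writers of H3K27 methylation, Ezh2 had 154 and 173 CPM in non-cycling RGCs and 442 and 433 in cycling RGCs, a log2 difference of 1.45 ± 0.16 (adjusted p = 8.3e-06). In IPCs it had 346 and 380 CPM against 680 and 612 in cycling cells (0.87 ± 0.13, adjusted p = 0.00257). Cycling RGCs thus lay above non-cycling IPCs in both libraries. The core subunit Suz12 had 93.4 and 112 CPM in non-cycling and 152 and 162 in cycling RGCs (0.64 ± 0.17, adjusted p = 0.018), and 91.3 and 91.1 against 232 and 189 in IPCs (1.25 ± 0.15, adjusted p = 0.000808). Ezh1, the paralog of Ezh2, stayed below 18 CPM in all 4 classes and was not called in either comparison, with 13.8 and 10.9 CPM in non-cycling against 7.71 and 9.23 in cycling RGCs.

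Nsd2, an H3K36 dimethyltransferase, had 137 and 146 CPM in non-cycling against 306 and 314 in cycling RGCs (1.16 ± 0.16, adjusted p = 7.53e-05). In IPCs it went from 154 and 167 to 400 and 361 CPM (1.29 ± 0.13, adjusted p = 0.000288). Its paralogs Nsd1 and Nsd3 were not called in either progenitor. Suv39h1, which methylates H3K9 in pericentric heterochromatin, had 20.2 and 20.7 CPM in non-cycling and 37.9 and 49.2 in cycling RGCs (1.11 ± 0.28, adjusted p = 0.0145), and 14.7 and 10.9 against 44.9 and 39.2 in IPCs (1.77 ± 0.28, adjusted p = 0.00297). Of thinned RGCs, 6.57% ± 3.69 of non-cycling and 8.91% ± 5.73 of cycling cells had a Suv39h1 UMI, and the spreads overlapped. In IPCs the shares were 3.32% ± 1 and 7.99% ± 1.37. For Ezh2 and Nsd2 the shares in RGCs were 33.3% ± 0.899 against 56.9% ± 1.91 and 24.3% ± 0.713 against 38.8% ± 1.38. Cbx2, a PRC1 subunit, was called in IPCs on low levels, 3.68 and 8.91 against 24 and 17.8 CPM (1.72 ± 0.45, adjusted p = 0.03), and fell under the count filter in RGCs.

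The genes lower in cycling cells were demethylases and Ring1. Kdm5b, which removes H3K4 methylation, had 136 and 124 CPM in non-cycling and 87 and 64.6 in cycling RGCs (-0.74 ± 0.19, adjusted p = 0.0154), and 276 and 290 against 109 and 127 in IPCs (-1.23 ± 0.13, adjusted p = 0.000313). Kdm7a, a demethylase of H3K9 and H3K27, had 55.2 and 58.7 against 26.7 and 28.5 CPM in RGCs (-1.02 ± 0.23, adjusted p = 0.00801), and 128 and 116 against 61.6 and 46.3 in IPCs (-1.12 ± 0.19, adjusted p = 0.00381). Both genes were lower in cycling cells of each library, with no overlap in CPM. Of thinned RGCs, 15.8% ± 2.87 of non-cycling and 14.3% ± 3.16 of cycling cells had a Kdm5b UMI, and the spreads overlapped. In IPCs the shares were 39.9% ± 0.47 and 21.6% ± 3.24. For Kdm7a they were 9.54% ± 0.514 and 6.62% ± 1.12 in RGCs, and 18.8% ± 1.93 and 7.72% ± 5.96 in IPCs. Kdm6b, an H3K27 demethylase, was called in IPCs, with 84.6 and 86.1 against 32.4 and 57 CPM (-0.91 ± 0.23, adjusted p = 0.0265). In RGCs its difference was -0.78 ± 0.25 (adjusted p = 0.0523, and 0.0437 with the library as a block). Ring1, a ubiquitin ligase of PRC1, was called in RGCs, with 30.8 and 26.1 against 14.7 and 9.23 CPM (-1.20 ± 0.35, adjusted p = 0.0321), and in IPCs its values were 21.4 and 18.8 against 17.7 and 7.13 CPM.

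Whether the cycling difference itself differed between RGCs and IPCs was tested as an interaction. None of 36 genes was called, where 0.904% of all genes were. At an unadjusted p under 0.05 there were 3, Ezh2 (0.56 ± 0.20, larger in RGCs), Suz12 (-0.63 ± 0.23, larger in IPCs) and Kdm2b (0.95 ± 0.26), and DESeq2 also called 0. Kdm2b, whose product recruits PRC1 to CpG islands, had 35 and 52.2 CPM in non-cycling and 70.8 and 68.5 in cycling RGCs, but 133 and 132 against 101 and 115 in IPCs. Its interaction had an adjusted p of 0.138 and from 0.0117 to 0.564 under the alternatives.

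As a check of the cycling gate, 12 cell cycle genes not used for it were compared. All 12 were higher in cycling IPCs, by log2 differences of 1.87 to 6.81, and 9 of 12 in cycling RGCs, where the replication genes Mcm2 (-0.13), Mcm5 (0.37) and Mcm6 (0.15) were not called. All 3 of these were higher in cycling IPCs. Non-cycling is thus only a name for cells without Mki67 or Top2a UMIs. Whether non-cycling RGCs and IPCs differed in cycle state, here or in the comparisons below, was not tested. Cycling cells also held more UMIs, with medians of 12992 and 11704 against 9009 and 8915 in RGCs, and the 7 and 8 calls all held among cells with at least 5000 UMIs. Among 46 further genes of these pathways, listed for comparison, 8 of 41 tested were higher in cycling RGCs and 6 of 43 in cycling IPCs, with none lower. Of all genes tested, 7.63% were higher and 5.03% lower in cycling RGCs, and 11.9% and 6.41% in cycling IPCs. Suv39h2, the paralog of Suv39h1, had the largest difference in both (1.83 and 2.26), followed by the PRC2 accessory subunit Phf19 in RGCs (1.38) and the histone chaperone Rbbp7 in IPCs (1.12). With the library as a block, Kmt2a was also called in both, by 0.48 in RGCs (adjusted p = 0.0416) and 0.41 in IPCs (adjusted p = 0.0207). Kdm2b was then called in RGCs (0.71, adjusted p = 0.0314), and Eed (0.68, adjusted p = 0.0127) and Kdm4c (-0.50, adjusted p = 0.0349) in IPCs. By DESeq2, and likewise without a filter on low counts, 2 genes were called in RGCs, Ezh2 and Nsd2.

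**Figure D3:**
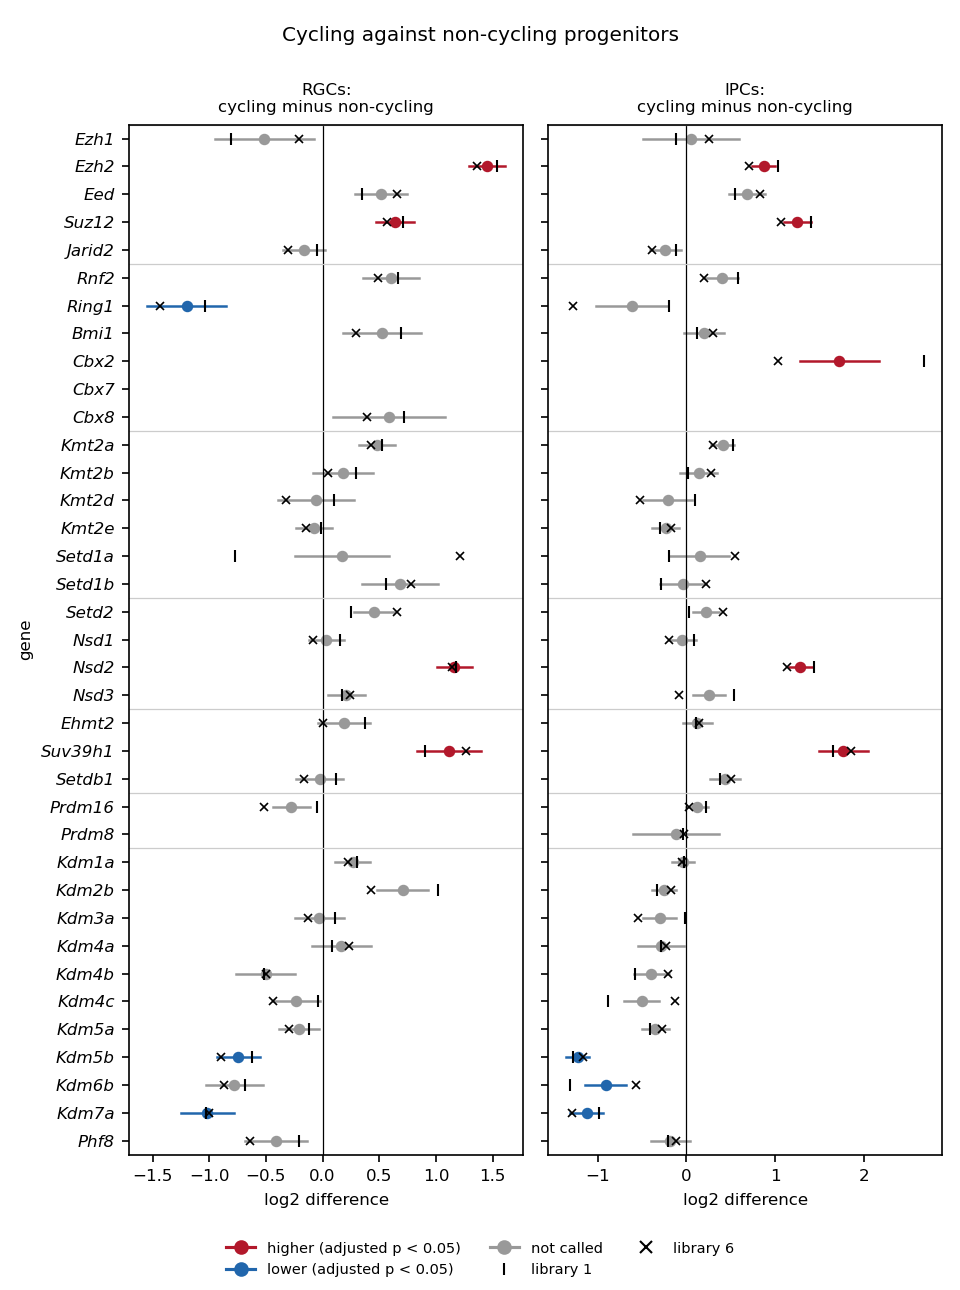
Log2 difference of cycling minus non-cycling cells (horizontal axes) for the 37 genes in RGCs and IPCs, with the fitted value and its SE as a coloured point and line and the values of both libraries as black symbols. Red genes were higher and blue genes lower at an adjusted p under 0.05, and genes without a point were not tested. Ezh2, Suz12, Nsd2 and Suv39h1 are red and Kdm5b and Kdm7a blue in both panels.

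The promoters of the genes that were higher in cycling cells were then searched for an E2F-type word, since E2F factors control many genes of the cell cycle. The words TTTCGCGC, TTTGGCGC, TTTCCCGC and TTTGCCGC were looked for on both strands of RefSeq promoters (GRCm38.p6, 250 bases before to 50 after a start site), a choice made after the cycling differences were known. A promoter was listed for 27 of the 37 genes, and 3 of these held a word in at least 1 listed promoter, where 704 of 27025 genes did (2.6%). The 3 were Ezh2, Suz12 and Suv39h1, which are also all the genes higher in cycling cells that had a listed promoter. The promoters of the 3 lower genes listed held none. No promoter was listed for Nsd2 and Cbx2, also higher in cycling cells, or for Kdm6b, also lower. Whether the words have a part in the cycling differences was not tested. Windows of 100 bases around the words are shown 5′ to 3′ on the strand of the gene, with the word in capitals. Suv39h1 has another listed promoter, which held no word. A match describes letters in a window and no factor was measured.
Ezh2 (chr6:47595001-47595100, minus strand, word 3 bases after the start site): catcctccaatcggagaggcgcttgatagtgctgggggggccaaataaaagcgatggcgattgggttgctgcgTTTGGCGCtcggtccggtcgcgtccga
Suz12 (chr11:79992856-79992955, plus strand, word 219 bases before the start site): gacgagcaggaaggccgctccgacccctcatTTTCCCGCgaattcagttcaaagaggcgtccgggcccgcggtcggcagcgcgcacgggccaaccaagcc
Suv39h1 (chrX:8074372-8074471, minus strand, word on the opposite strand 64 bases before the start site): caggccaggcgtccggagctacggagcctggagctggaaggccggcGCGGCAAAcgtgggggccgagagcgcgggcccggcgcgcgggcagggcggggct

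Between non-cycling RGCs and non-cycling IPCs, 16 of 34 genes tested differed, 1 higher and 15 lower in RGCs, where 34.8% of all genes were called. The median log2 difference was -0.41 over the genes and -0.01 over all genes tested. Prdm16 was the gene higher in RGCs (1.38 ± 0.13, adjusted p = 3.92e-06). The lower ones were 8 of the 11 demethylases, 2 of 5 PRC2 genes, 2 of 6 in the H3K4 methyltransferase family, 1 of 3 H3K9 and 1 of 4 H3K36 methyltransferases, and 1 of 6 PRC1 genes, of which 3 were not tested. Of all genes tested 15.8% were lower in RGCs, and a difference between the roles was not tested.

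Kdm1a, a demethylase of H3K4 that acts within corepressor complexes, had the largest drop, with 138 and 155 CPM in RGCs and 466 and 459 in IPCs (-1.70 ± 0.13, adjusted p = 9.79e-07). Kdm2b had 35 and 52.2 against 133 and 132 CPM (-1.65 ± 0.18, adjusted p = 1.88e-05). Ezh2, with 154 and 173 against 346 and 380 CPM, differed by -1.20 ± 0.13 (adjusted p = 1.97e-05), and Kdm5b, with 136 and 124 against 276 and 290 CPM, by -1.17 ± 0.13 (adjusted p = 2.38e-05). For each of these 4 genes, those with the largest drops, the libraries of the classes were far apart and did not overlap. Kdm7a (-1.14), the PRC1 subunit Bmi1 (-1.11), Kdm6b (-0.95), Setd1b (-0.90), Kdm4a (-0.85), Jarid2 (-0.75) and Kmt2e (-0.70) followed, and Kdm4b, Kdm4c, Ehmt2 and Nsd3 differed by -0.43 to -0.61. Ehmt2 lay at the threshold (adjusted p = 0.0497) and was called in 3 of the 9 alternatives with a test.

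Of the further pathway genes, 5 were higher and 7 lower of 43 tested. The PRC1 subunit gene Pcgf5 was higher in RGCs, with 74.3 and 117 against 19 and 11.4 CPM (2.63 ± 0.28), while Rybp, a PRC1 partner (-1.59), and Mtf2, which belongs to PRC2 (-1.19), were lower. RGCs had lower Bmi1 (Pcgf4) and higher Pcgf5 than IPCs in both libraries, 2 alternative subunits of PRC1. The library block added Kmt2a (-0.35, adjusted p = 0.0357), Setd2 (-0.43, adjusted p = 0.0182) and Prdm8 (adjusted p = 0.0231, from a background level in RGCs) to the lower genes. The Prdm8 level in IPCs is not told apart from background either, as described below. DESeq2 called 9 of the 16.

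The next step of the lineage, from non-cycling IPCs to newborn excitatory neurons, was compared after the levels above had been seen. Of 36 genes tested, 5 were higher in newborn neurons and 3 lower, where 38% of all genes were called, and the median of the genes was 0.00, as for all genes tested. Prdm8 was called higher (adjusted p = 5.36e-07), with 9.19 and 18.8 CPM in IPCs and 96.4 and 82.5 in newborn neurons. Of thinned IPCs 2.46% ± 2.67 had a Prdm8 UMI, beside 1.67% ± 2.36 of erythroid cells. Their 95% Poisson intervals, 10.9 to 19 and 1.32 to 18.8 CPM, overlapped as well. The Prdm8 level in IPCs is thus not told apart from background, and no size is given for the difference. Bmi1 went from 31.3 and 29.7 to 55 and 54.4 CPM (0.92 ± 0.16, adjusted p = 0.000374), and Cbx8, a PRC1 reader at low levels, from 6.74 and 4.46 to 11.2 and 11.7 CPM (1.12 ± 0.34, adjusted p = 0.0205). Nsd2 (0.39) and Kdm2b (0.37) were slightly higher in the neurons. Kdm7a had 128 and 116 CPM in IPCs and 43.6 and 49.2 in newborn neurons (-1.33 ± 0.13, adjusted p = 2.5e-06), so that its level in non-cycling IPCs stood above both the class before and the class after. Prdm16 dropped from 172 and 188 to 101 and 91.9 CPM (-0.83 ± 0.10, adjusted p = 2.78e-05), and Nsd1 by -0.32 ± 0.10. Kdm1a and Kdm5b, both higher in IPCs than in RGCs, were not called at this step.

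Among the further genes, 7 of 44 were higher and 5 lower in newborn neurons. Phf1, a PRC2 accessory subunit, was higher (1.80) on levels under 9 CPM. Pcgf5 (-2.66) and Rybp (-0.80) were lower. Pcgf5 was thus lower at both steps, from RGCs to IPCs and from IPCs to newborn neurons, with 2.72 and 1.62 CPM at the last. The block added Ezh2 (-0.27, adjusted p = 0.00577) and Kmt2a (0.25, adjusted p = 0.0371), and DESeq2 called 4 of the 8.

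All excitatory neurons together were compared with non-cycling RGCs, and 22 of 37 genes differed, 20 higher and 2 lower in neurons, where 48.2% of all genes were called (25.6% higher and 22.6% lower). The medians were 0.56 over the genes and 0.09 over all genes tested. Scaling by library totals in place of TMM moved the median of all genes to -0.14, and 15 genes were then higher and 6 lower. Prdm8 was called higher (adjusted p = 2.21e-05), with 78.1 and 71.5 CPM in neurons against 8.49 and 3.26, a level read as background above, so that no size is given for its difference. Bmi1 had 59.7 and 54.9 against 13.8 and 15.2 (2.21 ± 0.18, adjusted p = 4.6e-05) and Kdm2b 127 and 141 against 35 and 52.2 (1.85 ± 0.16, adjusted p = 7.02e-05). Kdm1a, with 349 and 345 against 138 and 155 CPM, was higher by 1.47 ± 0.10 (adjusted p = 1.94e-05). These 4 genes kept their direction and call in all 9 alternatives with a test. Prdm16 had 47.1 and 50.9 CPM against 463 and 508 (-3.08 ± 0.09, adjusted p = 6.7e-07).

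Kdm7a was called lower in the neurons at the threshold (-0.35 ± 0.12, adjusted p = 0.0468, and 0.0689 with the block), and Kdm3a was called under the block alone (-0.36, adjusted p = 0.0374). The 16 other genes higher in neurons ran from Setd1b (1.29) and Kdm5b (1.23) to Nsd3 (0.46). They included 4 of 6 H3K4 methyltransferase genes, Setd1b, Kmt2e (0.81), Kmt2b (0.72) and Kmt2a (0.64). Without TMM, Rnf2, Kmt2b, Nsd3, Ehmt2 and Kdm4b were no longer called. Of the 46 further genes 15 were higher and 6 lower. Smyd3, a SET-domain methyltransferase (1.90), and the demethylase Kdm1b (18.4 and 20.6 against 9.55 and 6.52 CPM) led the higher ones. Pcgf5 (-4.75) and Phf19 (-4.92) stood at the other end. Phf19 fell under the count filter in excitatory neurons against interneurons, and Pcgf5 was low in newborn neurons. Both sizes are therefore ratios to low neuronal levels.

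Excitatory neurons were also set against interneurons, the GABAergic cells that enter the cortex from the GE. Their sum held all GABAergic neurons outside the striatal gate, and 545 of its 967 cells in replicate 1 and 565 of 1046 in replicate 6 (56.4% and 54%) passed neither the MGE nor the CGE gate. These cells were led by Gm38505, Erbb4, Sox2ot and Gad1, and whether other GABAergic neurons of the ventral telencephalon were among them was not tested. The comparison was therefore repeated with MGE and CGE interneurons alone, after its results were known. Here 7 genes were higher and 9 lower in excitatory neurons of 37 tested, where 41.9% of all genes were called, with medians of -0.02 and 0.02. Without TMM the split was 4 higher and 12 lower, and Ezh1, Bmi1 and Kdm1a were no longer called. Interneurons had fewer UMIs per cell, with medians of 5133 and 4269 against 9144 and 8206, and among cells with at least 5000 UMIs Bmi1, Cbx8, Nsd2 and Kdm1a were no longer called. With MGE and CGE interneurons alone, 15 genes were called, 6 higher and 9 lower, where 32.2% of all genes were. Of the 16 calls 14 were made in the same direction, while Ezh1 (0.28, adjusted p = 0.247) and Kdm3a (-0.29, adjusted p = 0.111) were no longer called and Cbx2 was (-0.86, adjusted p = 0.0431).

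Both PRDM genes were higher in excitatory neurons. Prdm8 had 78.1 and 71.5 CPM there and 7.89 and 4.27 in interneurons (adjusted p = 1.88e-06), and with a UMI in 1.33% of thinned MGE and 0.903% of CGE interneurons its level there is read as background too. Prdm16 had 47.1 and 50.9 against 25 and 24 CPM (1.08 ± 0.09, adjusted p = 4.11e-05). Its level differed within the interneuron sum. Cells of neither gate had 35.7 and 37.5 CPM, and MGE and CGE interneurons together 12.8 and 9.64. Against the latter, Prdm16 was also called higher in excitatory neurons (adjusted p = 4.48e-05). With a UMI in 1.28% of thinned MGE and 1.81% of CGE interneurons, under the 5.45% limit of erythroid cells, no size is given for this difference. Kdm2b had 127 and 141 against 88.7 and 98 CPM (0.61 ± 0.08, adjusted p = 0.000475) and Cbx8 12.7 and 12 against 9.81 and 7.52 (0.58 ± 0.17, adjusted p = 0.0267). The libraries did not overlap between the classes for any of these 4 genes, which are the called ones with the largest differences in this direction. Ezh1 (0.44), Bmi1 (0.30) and Kdm1a (0.26) were higher by less.

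Interneurons had more of 5 of the 11 demethylases and excitatory neurons more of 2. Of all genes tested, 21.1% were higher in interneurons and 20.8% in excitatory neurons, and a difference between the roles was not tested. Kdm7a had 37.1 and 39 CPM in excitatory neurons and 70.4 and 78.9 in interneurons (-0.89 ± 0.08, adjusted p = 5.46e-05), where CGE interneurons had 82.6 and 113 and MGE interneurons 53 and 46.7. Phf8, an X-linked demethylase of H3K9, had 28.8 and 26.7 against 49.3 and 51.6 CPM (-0.78 ± 0.09, adjusted p = 0.000256). Kdm3a (-0.43), Kdm5a (-0.40) and Kdm4c (-0.28) completed the group. Jarid2, which helps to recruit PRC2, had 118 and 127 against 196 and 209 CPM (-0.64 ± 0.06, adjusted p = 0.000114). Cbx7 was lower in excitatory neurons as well (-1.57 ± 0.35, adjusted p = 0.00815) on very low levels, 1.37 and 1.32 against 5.39 and 3.05 CPM, and Nsd3 (-0.30) and Nsd2 (-0.25) by little. None of the H3K4 or H3K9 methyltransferase genes was called.

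With the block, Ezh2 (-0.13, adjusted p = 0.0354), Cbx2 (-0.65, adjusted p = 0.0227), Setd2 (-0.16, adjusted p = 0.0184) and Suv39h1 (-0.31, adjusted p = 0.0444) were also called lower in excitatory neurons. Of 44 further genes tested, 7 were higher and 15 lower. Epop, a PRC2 partner, was higher (1.71) at levels under 9 CPM, as was Smyd3 (0.95), and Kdm6a (-0.67) and Phc2 of PRC1 (-0.64) were lower. Kdm6a is X-linked and differed between the libraries, as described at the end.

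**Figure D4:**
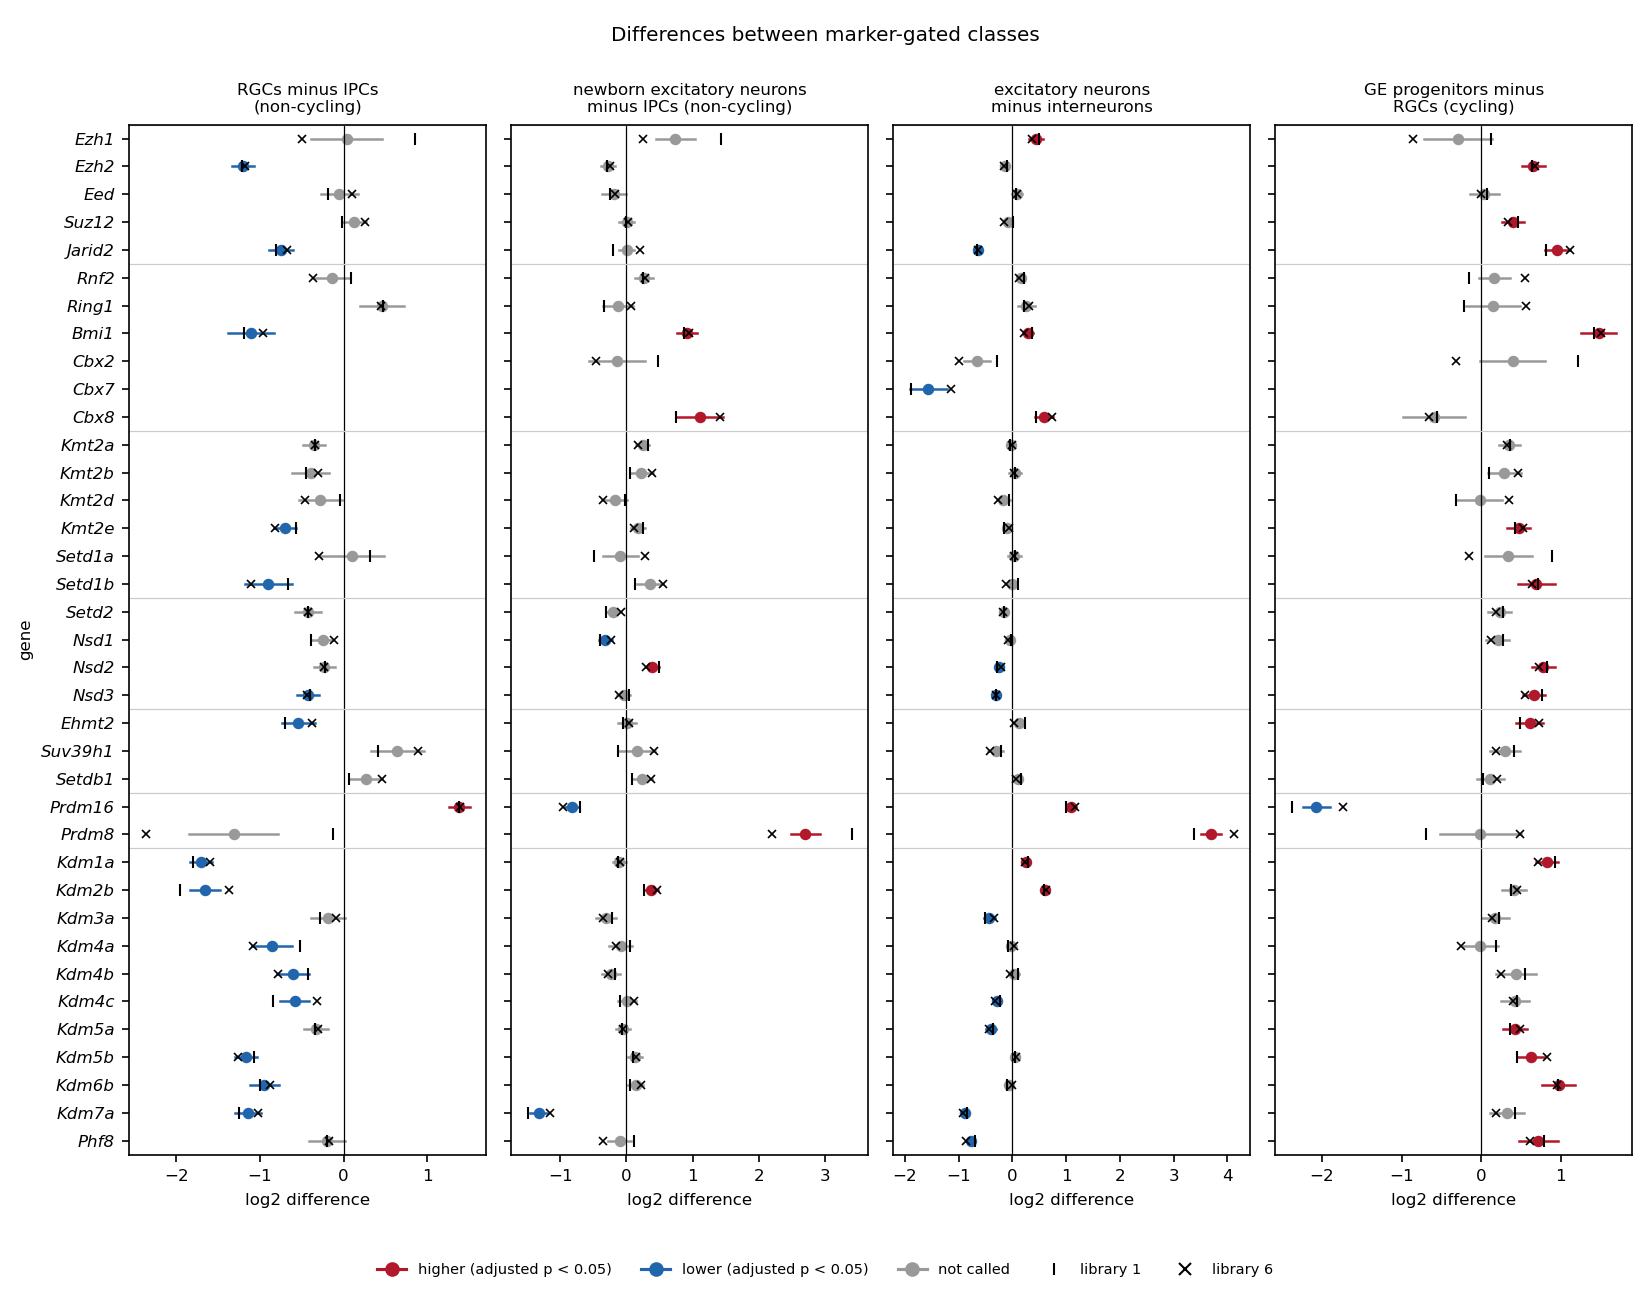
Log2 differences (horizontal axes) of the 37 genes between marker-gated classes in 4 comparisons, with the fitted value and its SE as a coloured point and line and each library as a black symbol. Red genes were higher and blue genes lower at an adjusted p under 0.05, and genes without a point were not tested. Most called genes are blue in the panel of RGCs minus IPCs (15 of 16) and red in that of GE progenitors minus RGCs (14 of 15).

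Deep-layer and upper-layer excitatory neurons differed in 1 of 36 genes tested, where 10.6% of all genes were called. Jarid2 had 135 and 149 CPM in deep-layer and 105 and 111 in upper-layer neurons (0.40 ± 0.09, adjusted p = 0.0257). With the library block, which called 3 genes, Prdm16 (-0.61, adjusted p = 0.00176) and Prdm8 (-0.35, adjusted p = 0.0189) were lower in deep-layer neurons as well. Prdm16 had 16.9 and 33.1 CPM there against 33.9 and 41.9, and Prdm8 56.1 and 60 against 78.6 and 69.6. DESeq2 called 0 and 4 genes had an unadjusted p under 0.05 in edgeR. Smyd3 was the 1 of 44 further genes called (-0.76 ± 0.11).

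Cycling progenitors of the GE were compared with cycling RGCs of the cortex, both selected for Mki67 and Top2a. Of 36 genes tested, 14 were higher in GE progenitors and 1 lower, where 30.6% of all genes were called (15.2% higher and 15.4% lower), with medians of 0.37 over the genes and 0.01 over all genes. Bmi1 had 58.1 and 51.8 CPM in GE progenitors against 22.4 and 18.5 in RGCs (1.47 ± 0.22, adjusted p = 0.000259) and Kdm6b 50.3 and 48.1 against 26.7 and 25.4 (0.97 ± 0.20, adjusted p = 0.00303). Jarid2 had 158 and 159 against 94 and 75.4 CPM (0.96 ± 0.16, adjusted p = 0.000556) and Kdm1a 308 and 280 against 168 and 177 (0.82 ± 0.14, adjusted p = 0.000823). In each case both GE libraries lay above both RGC libraries, for genes picked as those with the largest differences.

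Prdm16 was the lower gene, with 80.8 and 99.9 against 440 and 345 CPM (-2.07 ± 0.17, adjusted p = 2.57e-06). The rest of the higher genes included Nsd3 (0.66) and also Ezh2 (0.66), Suz12 (0.40) and Nsd2 (0.78), which were the genes higher in cycling cortical progenitors together with Suv39h1 and Cbx2, neither of which was called here. Among further genes 9 of 44 were higher, led by Setdb2, of the Setdb1 family (1.82), and Pcgf3 of PRC1 (1.09), and 4 lower, with Pcgf5 (-1.68) and Phf19 (-1.80) at the end. The block added Kmt2a (0.35, adjusted p = 0.0212), Kdm2b (0.42, adjusted p = 0.0289) and Kdm4c (0.43, adjusted p = 0.0356). DESeq2 called 7 of the 15.

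Over the comparisons, 5 genes were never called, Eed, Kmt2d, Setd1a, Setd2 and Setdb1, although Eed and Setd2 were under the block. At least 4 calls were made for 11 genes, among them Kdm7a and Nsd2 with 6 each. Every called gene had the same sign in both libraries. Of all genes tested, between 0.904% and 48.2% were called in a single comparison. How many of all genes had at least 4 calls, or none, is not given here. The numbers 5 and 11 therefore do not set these genes apart from other genes. Since the comparisons share classes (non-cycling RGCs and non-cycling IPCs each enter 4 of them, the interaction included), their calls are not independent of each other. How the strand and intronic reads were counted is not given in the sources used here.

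The genes with levels most like those of 3 members were listed from 36 sums (18 classes in 2 libraries) over 13708 genes, as Pearson's r of log levels, a description that shares library and depth. For Ezh2 these were Upf3b (r = 0.96), Smarcc1, C2cd3, Cenpc1 and Sfpq (0.95), and r was 0.84 to 0.94 for these genes without erythroid cells, in which most genes are low. For Prdm16 they were Prdm16os (0.87), which lies at the same locus and whose reads may not be separable, Gm13974, Gm29260, Paqr8 and Celsr1 (0.84). For Prdm8 they were Cldn3, Gm10862, Gm38348, 9130024F11Rik and 1700080N15Rik, with r from 0.88 to 0.85.

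Suv39h1 and Phf8 are X-linked, and 1 library came from each sex. Over all kept cells Suv39h1 had 18 CPM in replicate 1 and 18.7 in replicate 6, and Phf8 32.8 and 31.8. Among the further genes, the X-linked demethylases Kdm6a, with 93.1 and 55.5 CPM, and Kdm5c, with 57.1 and 43.5, were higher in the library with Xist. With 1 library per sex this has no replicate and no test.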

How the data were processed

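Per the labels, the dorsal telencephalon was dissociated with papain and libraries were made with the 10x single-cell 3' v3.1 protocol. The submitters' processing notes name Cell Ranger 7.0.0 and mm10. The authors deposited unnormalized UMI counts, a matrix of genes by cell barcodes for each library, with 74930397 UMIs in 14136 barcodes (WT replicate 1) and 68964234 UMIs in 13046 barcodes (WT replicate 6). No aligned reads or cell annotation were used. GRCm38.p6, the build of the RefSeq promoter table, is the assembly behind mm10.

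The 37 genes, the 46 further genes, the markers and the tests were chosen with earlier results of these data known, and the gate thresholds were set on these cells. RGCs needed at least 4 RGC markers with Pax6 or Emx2 and at most 1 Eomes UMI, IPCs at least 2 Eomes UMIs with another IPC marker, neurons at least 3 excitatory or GABAergic markers without Mki67 or Top2a. RGCs and IPCs had under 100 Ttr UMIs, a choroid plexus transcript. Doublets were treated by exclusive gates, and cells with the highest Scrublet-type scores (0.8% per 1000 cells) were left out as an alternative.

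Summed counts were tested with edgeR 4.0.16 (TMM, filterByExpr, quasi-likelihood, Benjamini-Hochberg over all genes tested) in R 4.3.3, each fit holding the classes compared, which gives each library 1 value per class. The code was tested on simulated counts. Genes named with values in both libraries are the 4 called with the largest difference in each direction, and 2 for the further genes, of which 1 is not reported here. Genes under the count filter are called not tested. The titles of the 2 libraries share a first number and differ in the second (1 and 6). No source explains these numbers, so whether the embryos were littermates is not known, and p-values measure the spread between these libraries. Counting error is Poisson and the depth per class was 210887 to 11722406 summed UMIs. Classes of a library come from the same tissue, so the library number pairs them. Deviations from class means correlated by 0.123 to 0.315 between classes of a library. The blocked fit is therefore given where it changes a call. DESeq2 1.42.0 was run as an alternative. Python 3.11.15, numpy 2.4.6 and scipy 1.17.1 were used for gates and levels.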

Additional observations from a re-analysis of the deposited data

How the results depend on the processing

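Each comparison was repeated without TMM scaling, with DESeq2, without a filter on low counts, with the library as a replicate block, with all classes in a single fit, with cells of 3000 to 30000 UMIs and under 5% mitochondrial UMIs, with likely doublets left out, with 1 more marker per gate and with cells of at least 5000 UMIs. Excitatory neurons were also compared with MGE and CGE interneurons alone, chosen after seeing the data. No called gene changed direction in any of these. The number of genes called moved by over 1.5 times as follows. In cycling against non-cycling RGCs it was 7, and 2 with DESeq2 or without the count filter. For the interaction it was 0, and 1 (Kdm2b) without the count filter, in a single fit and with likely doublets left out. In RGCs against IPCs DESeq2 called 9 in place of 16, in newborn neurons against IPCs 4 in place of 8, and in GE progenitors against RGCs 7 in place of 15. In excitatory neurons against interneurons a single fit called 10 in place of 16. In deep-layer against upper-layer neurons 1 gene was called, and 0 with DESeq2 or in a single fit, 3 without the count filter or with the library block, and 2 with likely doublets left out. The causes were not tested. Calls that held in all 9 alternatives were 2 of 7 and 6 of 8 for cycling in RGCs and IPCs, 9 of 16 for RGCs against IPCs, 4 of 8 for newborn neurons, 16 of 22 and 9 of 16 for excitatory neurons against RGCs and interneurons, 0 of 1 for the layers and 7 of 15 for GE progenitors. Leaving out a library leaves 1 sum per class and no test, and the other library then gives the value printed for it. Low counts limit Cbx2, Cbx7, Cbx8 and Ezh1 most. The block changed no call other than those named beside the results.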
